A study of Saccharomyces cerevisiae with 5 samples.

Results

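The genes described here are the cytosolic translation factors of Saccharomyces cerevisiae: 37 genes for initiation, elongation and release, chosen by name from the gene column of the deposited table, out of 5009 genes named there. They held 227 of the 27176 start clusters in the table, and all 37 reached 10 CPM, counts per 1e6 tags, in at least 1 library. By role they were 7 elongation genes, 10 genes for cap binding, mRNA helicases and poly(A) binding, 6 subunits of eIF3, 4 genes for start codon selection and subunit joining, 3 subunits of eIF2, 5 subunits of eIF2B and 2 release factors.

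Translation begins when eIF4F binds the mRNA cap, the small ribosomal subunit with eIF2, eIF3, eIF1 and eIF1A scans to the start codon, and eIF5B joins the large subunit. Elongation then needs eEF1A, which brings aminoacyl-tRNA, eEF2, which moves the ribosome along, and, in fungi, the ATPase eEF3. Release factors end the chain at a stop codon. These genes are known in yeast as abundantly transcribed growth genes, several of them present as duplicate copies.

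The measurements are CAGE libraries, in which the capped 5′ ends of RNAs are sequenced, so that each tag counts 1 transcript at its start and levels of different genes need no correction for length. Both strains, BY_DEH+ and BY_DEH++, are given in the labels by name alone, with no age or genotype. Cultures of 10 mL with 1% (w/v) of the carbon source were kept at 30 °C. BY_DEH+ was taken from DEH (4-deoxy-L-erythro-5-hexoseulose uronate, the monomer that alginate lyases release from seaweed alginate) after 3 days, at an OD600 of 0.2 at the start and 0.63 at the end, and from glucose after a night, at 0.05 and 0.91. BY_DEH++ was taken from DEH after 2 days, at 0.05 and 0.55, from glucose after a night, at 0.05 and 0.95, and from mannitol, a sugar alcohol, after 1 day, at 0.02 and 0.79. Medium, culture time and density therefore cannot be told apart. The title of the mannitol library holds the word New where the other titles hold the medium and a code of letters. What this stands for is not known here, and any difference in library preparation cannot be told apart from medium there.

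Each of the 5 groups is 1 library, so no difference below has a replicate check, and no p-value is given. The libraries held 9.43M to 19.9M reads (M, 1e6), a depth worked out from the size of the smallest steps in their values. A level of 10 CPM rested on 94 to 199 reads, and intervals below cover counting error only. A gene is called higher or lower where log2(CPM + 1) differs by 1 or more, a 2-fold change; ratios are of plain CPM. CPM give shares of a library, not RNA per cell. Cytosolic ribosomal protein genes held 4.41% and 3.54% of the listed CPM in glucose, 9.47% and 15.7% in DEH (BY_DEH+ and BY_DEH++) and 26.8% in mannitol. The median log2 fold of all 4904 genes tested was 0.12 and -0.11 in the DEH to glucose comparison of BY_DEH+ and BY_DEH++, -0.46 in that of mannitol to glucose, 0.32 in that of DEH to mannitol, and -0.22 (DEH) and -0.05 (glucose) for BY_DEH++ over BY_DEH+. With median-of-ratios scaling each of the 6 shifted, in the same order by -0.09, 0.09, 0.42, -0.32, 0.22 and 0.03.

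The deposited table gives some clusters to a gene that start at a neighbouring gene. For 13 of the 37 genes over 10% of the CPM in some library lay outside the gene's own start window, from 500 bp before to 100 bp after the coding start in the R64 annotation. For DED1, the deposited sum of 3318 CPM for BY_DEH+ in glucose held 2849.6 CPM from a cluster 992 bp before its coding start, at the start of HIS3, and 462 CPM from its own start. For TIF34, clusters on the opposite strand, at the starts of LDO45 and LDO16, were included. Counts of genes are therefore given first for the deposited sums and then for the start windows, and levels of single genes are CPM from their own start window.

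Most of these genes had nearly all of their CPM in 1 region, at their own start. In 24 of the 37, at least 90% of the CPM lay in the own start window in every library. The main cluster, the highest in that window, was 40 bases wide in DBP1 and 536 in HEF3, with a median of 114, and began a median of 100 bases before the coding start, against 99 over all 5280 genes with a window value. It lay wholly before the coding start in 6 genes, ran 1 to 20 bases past the start of the coding sequence or ended on its first base in 18, and ran further in 12. None of the 37 had the 50 bases from the middle of its main cluster onward repeated elsewhere in the genome. The coding sequences of TEF1 and TEF2, in contrast, are 99.9% identical, those of EFT1 and EFT2 99.8% and those of TIF1 and TIF2 99.5%. Tags starting at the middle of the cluster can thus be told apart between these copies. Tags starting further along a cluster were not checked.

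PRT1, which encodes the eIF3b subunit that holds the scanning complex together, was the exception. Its main cluster lay wholly inside the annotated coding sequence (chrXV:1015361-1017652, minus strand), at bases 59 to 127, as in 59 of 5280 genes (1.12%). The next in-frame ATG is codon 40 of 763, at bases 118 to 120, so 59 of the 69 bases of the cluster lie before it. The annotated start up to and including that codon is shown because it holds most of the main cluster, whose last bases lie past it (R64, chrXV:1017533-1017652, minus strand). The sequence is given 5′ to 3′ with both in-frame ATG codons in capitals.

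PRT1: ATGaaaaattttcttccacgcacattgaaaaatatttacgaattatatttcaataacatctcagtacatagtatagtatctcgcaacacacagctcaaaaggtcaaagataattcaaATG

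The start window held 91.1 and 91.8 CPM in BY_DEH+ in DEH and glucose, and 135, 85.0 and 164 CPM in BY_DEH++ in DEH, glucose and mannitol. No other cluster in that window was listed, so the inner start was the only one seen in all 5 libraries.

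The 300 bases before the main start cluster of each gene were searched on both strands for the letters of 8 known motifs. AAAATTTT, the core of the RRPE element found before ribosome biogenesis genes, was in 23 of the 37 (62.2%), against 582 of 5280 promoters of the same length (11.0%) and 7.30% of those of the 137 cytosolic ribosomal protein genes. Its match rate was 48.6% among 37 other translation factors and 61.9% among 21 of the 22 genes on the aminoacyl-tRNA synthetase list described at the end. TTTTAAAA, the same letters in another order, was in 1 of the 37 (2.70%) and in 3.71% of all promoters. All 26 matches in the 37 genes lay within 150 bases of the cluster, between 18 and 138 bases before it with a median of 65.5, while 83.5% of matches in all promoters did. CGGGTAA, the site of the general factor Reb1, was in 10 of the 37 (27.0%) against 10.4% of all. ACCCATACA, a Rap1 site, was in none against 0.966% of all and 13.1% of ribosomal protein promoters, and the wider ACCCANNCA was in 2, TEF1 and YEF3, against 4.41% and 32.8%. TATAAA (the TATA box) was in 18 (48.6% against 43.8% of all), CTTCC (Gcr1) in 20 (54.1% against 46.6%), GATGAG (PAC) in 10 (27.0% against 19.7%) and the Abf1 motif in none against 2.16%. Every ACCCATACA match is also an ACCCANNCA match. A match describes letters only.

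By role, AAAATTTT was before 5 of 7 elongation genes, 5 of 10 for cap binding, helicases and poly(A) binding, 4 of 6 eIF3 subunits, 3 of 4 genes for start codon selection and joining, all 3 eIF2 subunits, 1 of 5 eIF2B subunits (GCD1) and both release factors. TEF1 has it at 129 and 101 bases before its cluster. The promoters below are of some of the genes whose levels or differences stand out in the results that follow, TEF1, the eEF2 pair, SUI1, TIF4631 and HEF3. TEF2, CAF20 and TIF11 stand out there as well but are not shown, and they have no AAAATTTT match. Each is the 300 bases before the main cluster in R64, 5′ to 3′ on the gene's strand, with AAAATTTT and CGGGTAA (or TTACCCG, its reverse complement) in capitals. Their positions are TEF1 at chrXVI:700218-700517, plus strand, EFT1 at chrXV:574670-574969, plus strand, EFT2 at chrIV:1242817-1243116, plus strand, SUI1 at chrXIV:187606-187905, minus strand, TIF4631 at chrVII:823676-823975, plus strand, and HEF3 at chrXIV:605841-606140, plus strand.

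TEF1: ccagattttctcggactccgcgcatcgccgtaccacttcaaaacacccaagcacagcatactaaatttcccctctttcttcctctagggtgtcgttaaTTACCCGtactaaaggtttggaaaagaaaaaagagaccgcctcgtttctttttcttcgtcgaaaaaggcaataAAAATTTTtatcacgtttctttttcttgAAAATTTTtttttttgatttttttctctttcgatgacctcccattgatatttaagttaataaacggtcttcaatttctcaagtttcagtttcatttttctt
EFT1: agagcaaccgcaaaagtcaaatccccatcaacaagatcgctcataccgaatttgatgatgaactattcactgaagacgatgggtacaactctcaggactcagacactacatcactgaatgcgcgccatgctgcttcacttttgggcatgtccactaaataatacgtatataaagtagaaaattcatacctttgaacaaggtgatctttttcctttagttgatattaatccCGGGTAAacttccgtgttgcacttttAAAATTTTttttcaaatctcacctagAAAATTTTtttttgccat
EFT2: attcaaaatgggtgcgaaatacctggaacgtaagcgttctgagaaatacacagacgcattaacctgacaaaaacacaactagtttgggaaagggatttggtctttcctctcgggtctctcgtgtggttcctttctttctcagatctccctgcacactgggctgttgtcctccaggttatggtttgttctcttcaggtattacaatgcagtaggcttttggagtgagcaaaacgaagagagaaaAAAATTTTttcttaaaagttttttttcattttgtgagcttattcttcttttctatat
SUI1: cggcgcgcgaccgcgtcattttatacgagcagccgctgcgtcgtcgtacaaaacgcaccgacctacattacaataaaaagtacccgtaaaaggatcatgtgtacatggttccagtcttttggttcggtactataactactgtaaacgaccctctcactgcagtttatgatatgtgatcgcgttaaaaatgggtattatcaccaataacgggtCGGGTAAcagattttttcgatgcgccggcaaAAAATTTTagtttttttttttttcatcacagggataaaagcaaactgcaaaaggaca
TIF4631: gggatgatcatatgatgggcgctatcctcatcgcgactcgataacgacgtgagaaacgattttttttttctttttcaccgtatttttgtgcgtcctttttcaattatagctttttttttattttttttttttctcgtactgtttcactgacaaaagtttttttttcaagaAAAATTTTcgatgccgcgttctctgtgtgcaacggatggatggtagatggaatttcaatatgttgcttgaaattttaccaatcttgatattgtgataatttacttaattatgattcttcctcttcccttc
HEF3: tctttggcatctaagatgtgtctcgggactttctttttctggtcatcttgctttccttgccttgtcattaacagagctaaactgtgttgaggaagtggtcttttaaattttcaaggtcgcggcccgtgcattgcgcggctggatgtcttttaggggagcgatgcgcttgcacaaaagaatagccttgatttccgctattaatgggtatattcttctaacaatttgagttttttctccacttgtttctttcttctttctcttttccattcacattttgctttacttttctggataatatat

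**Figure D1:**
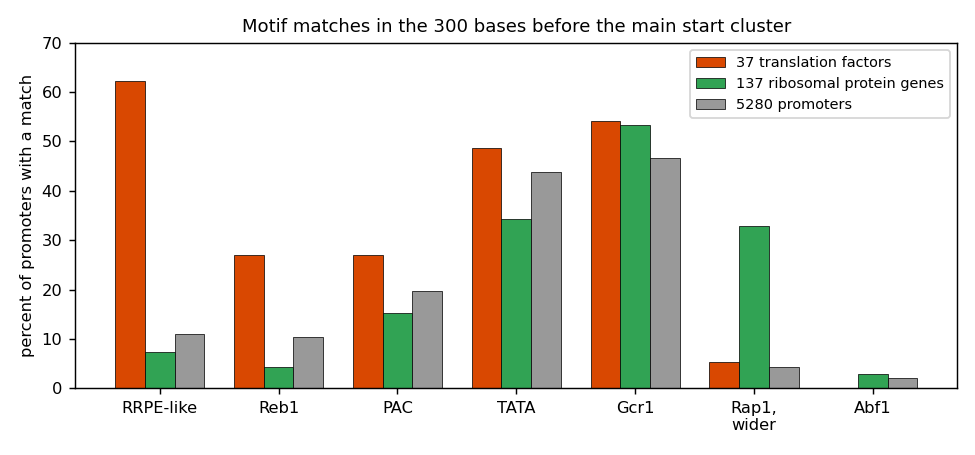
Percent of promoters (y axis) with a match to each motif (x axis, by the factor or element it is known for) among the 37 translation factor genes, the 137 cytosolic ribosomal protein genes and all 5280 promoters, each the 300 bases before the main start cluster, on either strand. The RRPE-like letters AAAATTTT stand before 62.2% of the translation factor genes and 11.0% of all.

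The range of levels was wide and its top was the same in every library. TEF2, TEF1 (both eEF1A) and YEF3 (eEF3) were the 3 highest of the 37 in all 5, and together held 50.1% to 58.9% of the CPM of the set. The 37 own-start values summed to 1.78% and 1.84% of the listed CPM in glucose (BY_DEH+ and BY_DEH++), 2.16% and 3.26% in DEH and 2.35% in mannitol. Ribosomal protein genes moved further over the same libraries. Their start-window CPM per CPM of translation factors was 1.98 and 1.54 in glucose, 3.82 and 4.30 in DEH and 9.89 in mannitol.

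**Figure D2:**
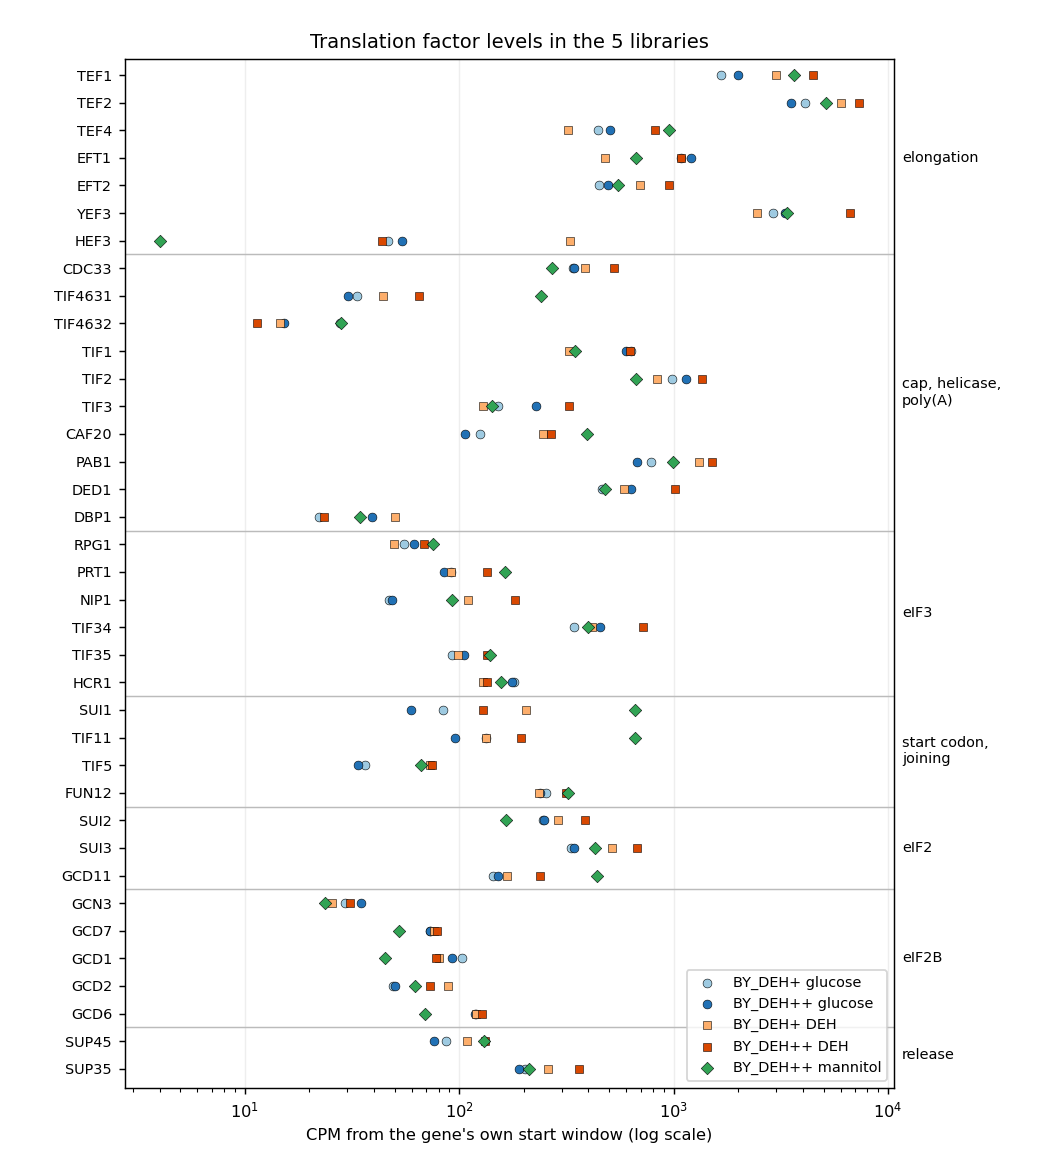
Level of each of the 37 genes (rows, by role) as CPM from its own start window (x axis, log scale) in the 5 libraries, 1 point per library. TEF1, TEF2 and YEF3 stand at the right in every library, and HEF3 spreads from 4.01 CPM in mannitol to 328 CPM in BY_DEH+ in DEH.

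In DEH, the genes of this set differed from glucose in few cases in BY_DEH+ and in more, all upward, in BY_DEH++. In BY_DEH+ 3 were higher (HEF3, DBP1 and TIF5) and 2 lower (EFT1 and DED1), where 10.5% and 9.97% of all 4904 genes were; with start windows 4 were higher (HEF3, DBP1, NIP1 and SUI1) and 1 lower (EFT1), against 11.5% and 10.6% of 5280. In BY_DEH++ 8 were higher (TEF1, TEF2, YEF3, TIF4631, CAF20, PAB1, NIP1 and TIF5) and 0 lower, against 8.69% and 10.8% of all genes. With start windows SUI1 and TIF11 joined them, for 10 higher and 0 lower against 9.11% and 11.9%. The counts in BY_DEH+ were thus near or below the background, and those higher in BY_DEH++ were 21.6% and 27.0% of the set. The median log2 fold of the 37 was 0.01 in BY_DEH+ (0.21 with start windows) and 0.55 in BY_DEH++ (0.64), beside 0.12 and -0.11 over all genes. The fold was larger in BY_DEH++ than in BY_DEH+ for 33 of the 37 (31 with deposited sums), where it was for 36.6% of 5280 genes; these folds share no library. The exceptions by start window were HEF3, DBP1, SUI1 and GCD2. By comparison 98 of the 137 ribosomal protein genes were called higher in BY_DEH+ and 131 in BY_DEH++. For DEH over glucose in BY_DEH++ the 23 genes with AAAATTTT before their start had a median log2 fold of 0.68 and the 14 without it 0.19, beside 0.37 and -0.15 over all promoters with and without it; in BY_DEH+ the 4 medians were 0.21, 0.17, 0.23 and 0.10.

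**Figure D3:**
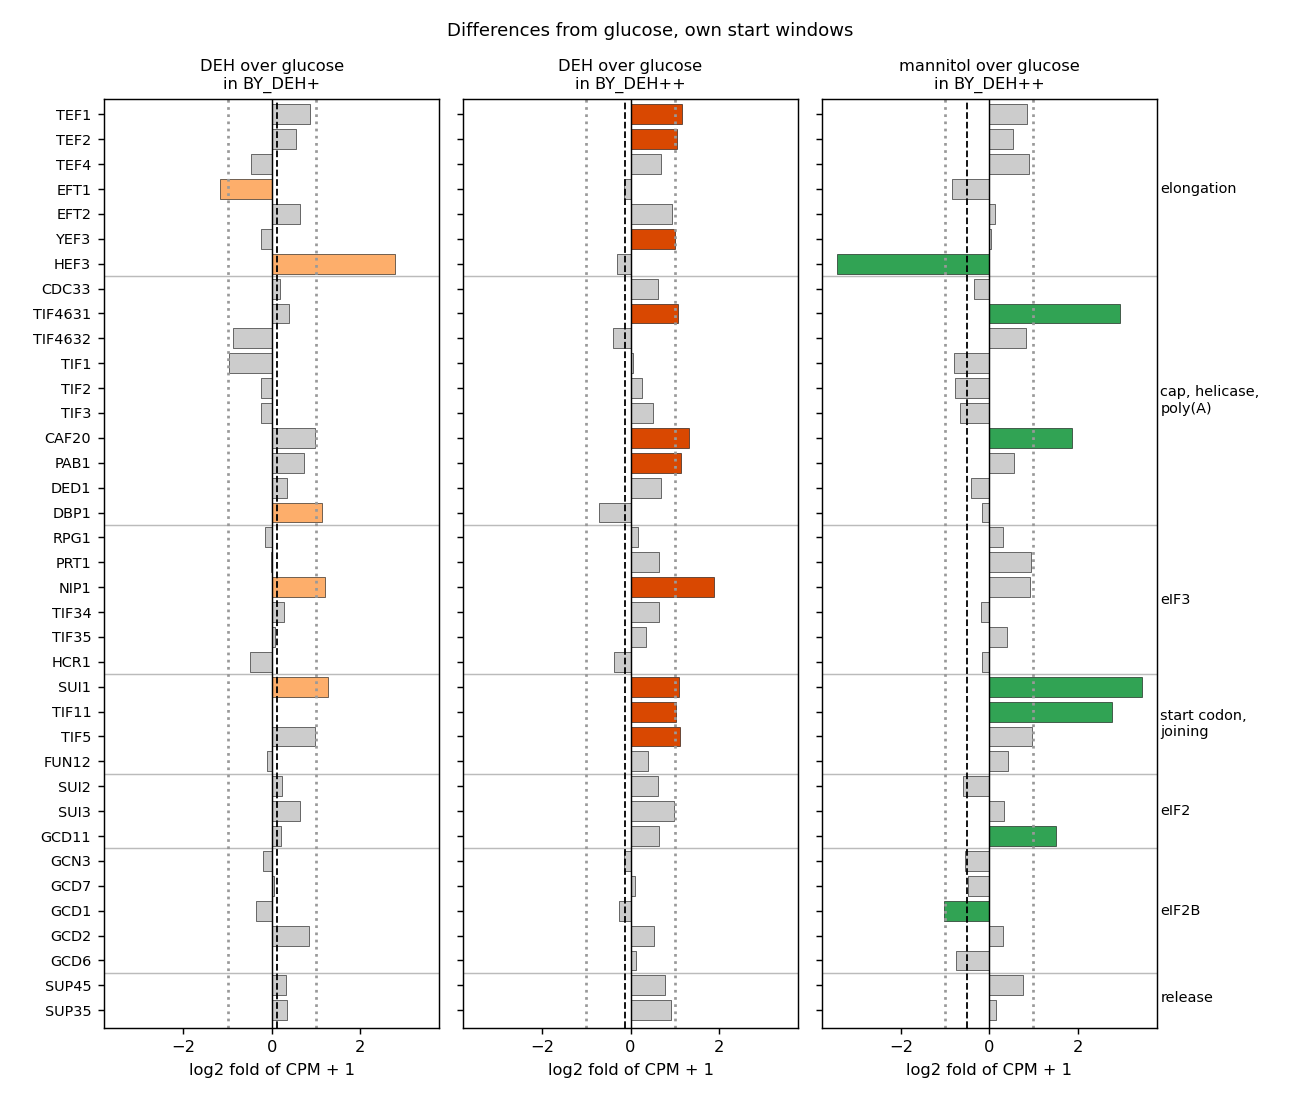
Log2 fold of CPM + 1 (x axis) of each of the 37 genes (rows, by role) from own start windows, for DEH over glucose in BY_DEH+ and in BY_DEH++ and for mannitol over glucose in BY_DEH++. Coloured bars pass 2-fold, dotted lines mark 2-fold and the dashed line is the median of all genes; in the middle panel 10 bars pass upward and none downward.

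Among the elongation genes, both eEF1A copies were higher in DEH. TEF1 (YPR080W, chrXVI:700594-701970) stood at 3011 CPM in BY_DEH+ and 4470.4 CPM in BY_DEH++ in DEH, at 1654 and 2004 CPM in glucose, and at 3635 CPM in mannitol. Its level in DEH was 1.82-fold higher (95% counting interval 1.79 to 1.86) in BY_DEH+ and 2.23-fold higher (95% counting interval 2.20 to 2.26) in BY_DEH++. TEF2 (YBR118W, chrII:477671-479047), the copy with more RNA in all 5 libraries, stood at 6024 CPM in BY_DEH+ and 7346 CPM in BY_DEH++ in DEH, at 4111 and 3532 CPM in glucose, and at 5122 CPM in mannitol. It was 1.47-fold higher (95% counting interval 1.45 to 1.48) and 2.08-fold higher (95% counting interval 2.06 to 2.10). Both genes were above both glucose libraries in DEH and in mannitol, and passed 2-fold over glucose for BY_DEH++ in DEH alone.

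YEF3 (YLR249W), the eEF3 ATPase that clears the exit site of the ribosome, differed between the strains in DEH. It stood at 2912 CPM (BY_DEH+) and 3293 CPM (BY_DEH++) in glucose, at 2455 and 6665 CPM in DEH and at 3394 CPM in mannitol. In BY_DEH++ the DEH library held 2.02-fold more (95% counting interval 2.00 to 2.05) than glucose, while in BY_DEH+ it was 1.19-fold lower (95% counting interval 1.17 to 1.21). The BY_DEH++ library in DEH stands apart from the other 4, which lie within 2455 to 3394 CPM.

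HEF3 (YNL014W, chrXIV:606319-609453), a copy of YEF3 with 74.5% identical coding bases, showed the widest range of the set. It stood at 328 CPM in DEH in BY_DEH+, at 46.5 (BY_DEH+) and 54.1 CPM (BY_DEH++) in glucose, at 43.6 CPM in DEH in BY_DEH++ and at 4.01 CPM in mannitol. Only 1 library was high and 1 low. The BY_DEH+ value in DEH was 7.05-fold higher (95% counting interval 6.38 to 7.81) than in glucose, and the mannitol value was 13.5-fold lower (95% counting interval 9.87 to 18.9). HEF3's main cluster runs from 178 bases before its coding start to 357 bases past its first coding base, the broadest of the set. The deposited table gives this cluster to PBI2 as well as to HEF3. PBI2, the gene before it on the same strand, reached 1022 CPM in the BY_DEH+ library from DEH, 843 CPM in that from glucose, and 1109.8 CPM in mannitol. YEF3 held 88.2% of the CPM of the eEF3 pair in DEH in BY_DEH+ and at least 98.4% in the other 4 libraries.

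The eEF2 pair differed in balance between media. EFT1 (YOR133W) stood at 479.6 CPM in BY_DEH+ and 1083 CPM in BY_DEH++ in DEH, at 1080.0 and 1204 CPM in glucose, and at 665 CPM in mannitol, and EFT2 (YDR385W), which encodes the same protein, at 698 CPM in BY_DEH+ and 952 CPM in BY_DEH++ in DEH, at 448 and 496 CPM in glucose, and at 547 CPM in mannitol. EFT1 had its lowest value in DEH in BY_DEH+, where EFT2 stood above both glucose libraries. The ratio of EFT1 to EFT2 was 2.41 (95% counting interval 2.32 to 2.50) and 2.43 (95% counting interval 2.36 to 2.50) in glucose, 0.687 (95% counting interval 0.663 to 0.712) in DEH in BY_DEH+, 1.14 (95% counting interval 1.12 to 1.16) in DEH in BY_DEH++ and 1.22 (95% counting interval 1.17 to 1.26) in mannitol. The glucose values of the strains lie within each other's intervals, and the other 3 libraries lie below them. A ratio of 2 genes in 1 library does not depend on how libraries are scaled. TEF4 (YKL081W), a gamma subunit of the exchange factor of eEF1A, stood at 443 CPM (BY_DEH+) and 507 CPM (BY_DEH++) in glucose, at 321 and 815 CPM in DEH and at 949.6 CPM in mannitol; it was 1.38-fold lower (95% counting interval 1.32 to 1.44) in DEH in BY_DEH+ and 1.61-fold higher (95% counting interval 1.56 to 1.66) in BY_DEH++, neither past 2-fold.

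**Figure D4:**
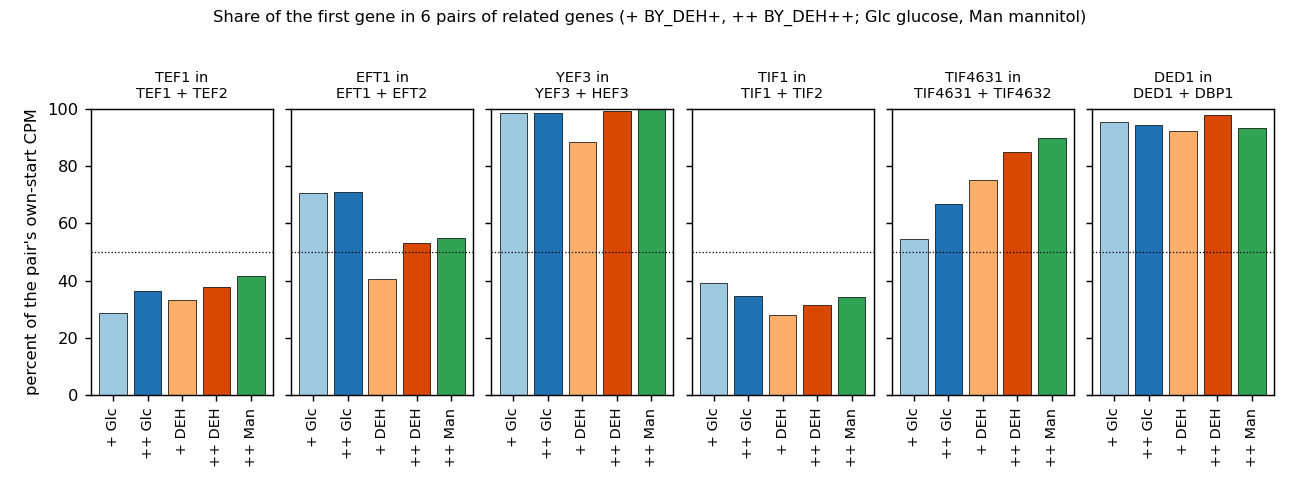
Share of the first gene in the own-start CPM of 6 pairs of related genes (y axis, percent) in the 5 libraries (x axis), with a dotted line at equal shares. EFT1 holds 70.7% and 70.8% of its pair in glucose and between 40.7% and 54.9% in the other 3 libraries, and TIF4631 is at its highest share, 89.6%, in mannitol.

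Of the genes that act at the cap and on mRNA structure, CAF20, PAB1 and TIF4631 were higher in DEH in BY_DEH++, and the eIF4A helicase genes were not. CAF20 (YOR276W) encodes a protein that binds eIF4E and competes with eIF4G for it. It stood at 245 CPM in BY_DEH+ and 268 CPM in BY_DEH++ in DEH, at 124 and 107 CPM in glucose, and at 395 CPM in mannitol, which is 1.97-fold higher (95% counting interval 1.84 to 2.11) in DEH in BY_DEH+, 2.51-fold higher (95% counting interval 2.37 to 2.67) in BY_DEH++ and 3.70-fold higher (95% counting interval 3.48 to 3.94) in mannitol. CDC33 (YOL139C), eIF4E itself, stood at 340.4 CPM (BY_DEH+) and 342 CPM (BY_DEH++) in glucose, at 385 and 528 CPM in DEH and at 271 CPM in mannitol. The CDC33 to CAF20 ratio was 2.74 and 3.21 in glucose, 1.57 and 1.97 in DEH, and 0.686 (95% counting interval 0.653 to 0.719) in mannitol, the only library of the 5 in which the eIF4E binding protein had more RNA than eIF4E.

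The eIF4G scaffold is encoded by TIF4631 (YGR162W) and TIF4632 (YGL049C). TIF4631 stood at 44.3 CPM in BY_DEH+ and 64.6 CPM in BY_DEH++ in DEH, at 33.4 and 30.4 CPM in glucose, and at 241 CPM in mannitol, so that mannitol was 7.95-fold higher (95% counting interval 7.15 to 8.85) than glucose and DEH 2.13-fold higher (95% counting interval 1.90 to 2.39) in BY_DEH++. TIF4632 was at 27.8 and 15.2 CPM in glucose, 14.7 and 11.4 CPM in DEH and 28.0 CPM in mannitol, the lowest gene of the 37 in 3 libraries. TIF4631 had more RNA than TIF4632 in all 5 libraries, by a ratio of 1.20 and 2.00 in glucose, 3.02 and 5.69 in DEH and 8.62 (95% counting interval 7.63 to 9.76) in mannitol. For BY_DEH+ in DEH the deposited sum of TIF4632 also holds 11.3 CPM from a cluster inside its coding sequence, so its call as lower in BY_DEH++ than in BY_DEH+ in DEH holds for the deposited sum (log2 fold -1.13) and not for its own start (-0.34).

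TIF1 (YKR059W) and TIF2 (YJL138C) encode the same eIF4A helicase. TIF1 stood at 325 CPM in BY_DEH+ and 629 CPM in BY_DEH++ in DEH, at 632 and 602 CPM in glucose, and at 345 CPM in mannitol, and TIF2 at 832 CPM in BY_DEH+ and 1362 CPM in BY_DEH++ in DEH, at 981 and 1137 CPM in glucose, and at 664 CPM in mannitol. Neither passed 2-fold against glucose in any of the 3 comparisons, though TIF1 was near the limit in DEH in BY_DEH+ (log2 fold -0.96). Both stood below glucose in mannitol (log2 folds -0.80 and -0.77, beside a median of -0.50 over all genes by start window). TIF3 (YPR163C), the eIF4B that aids the helicase, had a log2 fold of -0.68 in mannitol and stood at 152 CPM (BY_DEH+) and 229 CPM (BY_DEH++) in glucose, at 129 and 326 CPM in DEH and at 143 CPM in mannitol. PAB1 (YER165W), the poly(A) binding protein that touches eIF4G, was at 1310.2 and 1505 CPM in DEH, 787 and 676 CPM in glucose and 995 CPM in mannitol, 2.23-fold higher (95% counting interval 2.17 to 2.28) in DEH than in glucose in BY_DEH++. All 3 values outside glucose lay above both glucose values.

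DED1 (YOR204W) and DBP1 (YPL119C) encode related RNA helicases used in scanning. At its own start DED1 stood at 462 CPM (BY_DEH+) and 632 CPM (BY_DEH++) in glucose, at 587 and 1014 CPM in DEH and at 477 CPM in mannitol, with a log2 fold for DEH over glucose of 0.34 in BY_DEH+, while the deposited sum gave -1.64 through the HIS3 start cluster. Its count among the lower genes in BY_DEH+ thus holds for the deposited sum alone. DBP1 stood at 50.1 CPM in BY_DEH+ and 23.4 CPM in BY_DEH++ in DEH, at 22.2 and 39.2 CPM in glucose, and at 34.6 CPM in mannitol, 2.26-fold higher (95% counting interval 1.92 to 2.66) in DEH in BY_DEH+ and 1.67-fold lower (95% counting interval 1.47 to 1.90) in BY_DEH++. DED1 held 92.1% to 97.7% of the pair's CPM.

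Of the 6 subunits of eIF3, the scaffold on the small ribosomal subunit, NIP1 alone was called against glucose. NIP1 (YMR309C), the eIF3c subunit, was at 109.6 and 183 CPM in DEH, 47.0 and 48.3 CPM in glucose and 92.7 CPM in mannitol at its own start. DEH was 2.33-fold higher (95% counting interval 2.09 to 2.61) in BY_DEH+ and 3.78-fold higher (95% counting interval 3.47 to 4.12) in BY_DEH++. The deposited sum, which adds clusters at the starts of UPA2 and GLC8, gave log2 folds of 0.97 and 1.12. The other eIF3 subunits were RPG1 (eIF3a), PRT1 (eIF3b), TIF34 (eIF3i), TIF35 (eIF3g) and HCR1 (eIF3j). Their log2 folds for DEH over glucose ran from -0.48 (HCR1) to 0.28 (TIF34) in BY_DEH+ and from -0.38 (HCR1) to 0.66 (PRT1) in BY_DEH++, and in mannitol from -0.20 (TIF34) to 0.94 (PRT1). None of the 6 was called in mannitol. Levels differed within the complex: TIF34 was at 343 to 715 CPM over the 5 libraries and RPG1 at 49.7 to 75.6 CPM, with TIF35 at 92.8 to 139 CPM and HCR1 at 129 to 180.3 CPM.

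The factors that select the start codon had the largest median log2 fold of the 7 roles in mannitol, 1.87. SUI1 (YNL244C, chrXIV:187170-187496), which encodes eIF1, stood at 206 CPM in BY_DEH+ and 129 CPM in BY_DEH++ in DEH, at 84.2 and 59.8 CPM in glucose, and at 663 CPM in mannitol. Mannitol was 11.1-fold higher (95% counting interval 10.3 to 11.9) than glucose, and DEH was 2.44-fold higher (95% counting interval 2.25 to 2.65) in BY_DEH+ and 2.15-fold higher (95% counting interval 1.98 to 2.33) in BY_DEH++. Both BY_DEH++ folds share the glucose library. The glucose values of the strains were the lowest of the 5. With the deposited sum, which adds a cluster at the start of the neighbouring CWC25, its log2 folds for DEH over glucose were 0.91 and 0.56. TIF11 (YMR260C), eIF1A, stood at 133 CPM (BY_DEH+) and 95.5 CPM (BY_DEH++) in glucose, at 134 and 195 CPM in DEH and at 657 CPM in mannitol. In mannitol it was 6.88-fold higher (95% counting interval 6.48 to 7.31), and in DEH in BY_DEH++ 2.04-fold higher (95% counting interval 1.91 to 2.18), while in BY_DEH+ the DEH and glucose values were 134 and 133 CPM, a log2 fold of 0.01. TIF5 (YPR041W), the eIF5 that makes eIF2 hydrolyse its GTP, was at 73.0 and 74.5 CPM in DEH, 36.3 and 33.7 CPM in glucose and 66.6 CPM in mannitol. It was near 2-fold above glucose in all 3 (log2 folds 0.99, 1.12 and 0.96), on both sides of the limit. FUN12 (YAL035W), the eIF5B that joins the subunits, was at 235 to 321 CPM over the 5 libraries and had log2 folds of -0.11, 0.39 and 0.43.

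The eIF2 heterotrimer carries the initiator tRNA. Its 3 subunits stood in 1 order in DEH and glucose and in another in mannitol. SUI2 (alpha, YJR007W) stood at 289.9 CPM in BY_DEH+ and 385 CPM in BY_DEH++ in DEH, at 245 and 249 CPM in glucose, and at 164 CPM in mannitol. SUI3 (beta, YPL237W) stood at 518 CPM in BY_DEH+ and 676 CPM in BY_DEH++ in DEH, at 333 and 342 CPM in glucose, and at 429.8 CPM in mannitol. GCD11 (gamma, YER025W) stood at 167 CPM in BY_DEH+ and 237 CPM in BY_DEH++ in DEH, at 144 and 152 CPM in glucose, and at 437 CPM in mannitol. SUI3 had the most RNA and GCD11 the least in the 4 libraries from DEH and glucose, and SUI2 had the least in mannitol. GCD11 was 2.87-fold higher (95% counting interval 2.73 to 3.03) in mannitol than in glucose, while SUI2 was 1.51-fold lower (95% counting interval 1.43 to 1.61). The log2 fold of SUI2 was -0.59, near the median of -0.50 over all 5280 genes by start window. The GCD11 to SUI2 ratio was 0.577 and 0.589 in BY_DEH+ (DEH and glucose), 0.614 and 0.611 in BY_DEH++, and 2.66 (95% counting interval 2.51 to 2.81) in mannitol. The intervals of DEH and glucose overlap within each strain, and the mannitol interval lies above all 4.

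The eIF2B subunits recycle eIF2 by exchanging its nucleotide. They are GCN3 (alpha), GCD7 (beta), GCD1 (gamma), GCD2 (delta) and GCD6 (epsilon). In each strain they had the lowest median log2 fold of the 7 roles for DEH over glucose. By start window it was 0.01 in BY_DEH+ and 0.11 in BY_DEH++, and by deposited sum -0.17 and -0.16. None of the 5 subunits was called in either strain. Their summed CPM was 390.5 and 373 in BY_DEH+ in DEH and glucose, 389 and 369 in BY_DEH++, and 252 in mannitol, beside 975, 722, 1298, 743 and 1031 for the eIF2 subunits in the same order. In mannitol 4 of the 5 were below glucose, with log2 folds from -1.03 (GCD1) to 0.30 (GCD2), the same number with median-of-ratios scaling; 68.2% of all 5280 genes lay below glucose in mannitol. GCD1 (YOR260W) was called lower, at 45.0 CPM against 93.0 CPM in glucose, 2.06-fold lower (95% counting interval 1.86 to 2.30), and not after that scaling (-0.61). GCD2 had the largest difference of the group in DEH, 88.7 against 48.9 CPM in BY_DEH+, a log2 fold of 0.85, and 0.53 in BY_DEH++. Over the 5 libraries GCN3 was at 23.6 to 34.8 CPM, GCD7 at 52.2 to 79.0 CPM and GCD6 at 69.3 to 128 CPM, each lowest in mannitol.

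The release factors SUP45 (eRF1, YBR143C), which reads the stop codon, and SUP35 (eRF3, YDR172W), its GTPase partner, stood above glucose at their own starts in all 3 comparisons without passing 2-fold. SUP45 stood at 109 CPM in BY_DEH+ and 132 CPM in BY_DEH++ in DEH, at 86.9 and 76.5 CPM in glucose, and at 131 CPM in mannitol, and SUP35 at 259 CPM in BY_DEH+ and 362 CPM in BY_DEH++ in DEH, at 202 and 190.1 CPM in glucose, and at 212 CPM in mannitol. The log2 folds were 0.32 and 0.36 in BY_DEH+, 0.78 and 0.93 in BY_DEH++ and 0.77 and 0.15 in mannitol. The deposited sum of SUP45 gave -0.20 in BY_DEH+, through a further cluster described below.

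In mannitol, taken over the whole set, 5 of the 37 were higher than in glucose (TIF4631, CAF20, SUI1, TIF11 and GCD11) and 2 lower (HEF3 and GCD1), where 9.89% and 27.0% of all genes were; start windows gave the same 7 genes, against 9.85% and 29.1%. The share lower is below the background and the share higher (13.5%) near it. The median log2 fold of the 37 was 0.17 against -0.46 over all genes. With median-of-ratios scaling, or with ribosomal protein genes left out of the total, 11 were higher, against 15.8% and 15.4% of all genes: TEF1, TEF4, TIF4632, PRT1, NIP1 and TIF5 joined the 5, and GCD1 was no longer lower. Coding length moved with this comparison over all genes. Among genes other than ribosomal protein genes, the 574 with a coding length of up to 500 bases had a median log2 fold of 0.36, with 32.6% higher, and the longer classes had medians of -0.62 to -0.49, with 3.91% to 4.74% higher. The 3 shortest of the 37, SUI1 (327 bases), TIF11 (462) and CAF20 (486), were all among the 5 higher in mannitol; GCD11 (1584) and TIF4631 (2859) were not short. The part of length in these results was not tested.

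**Figure D5:**
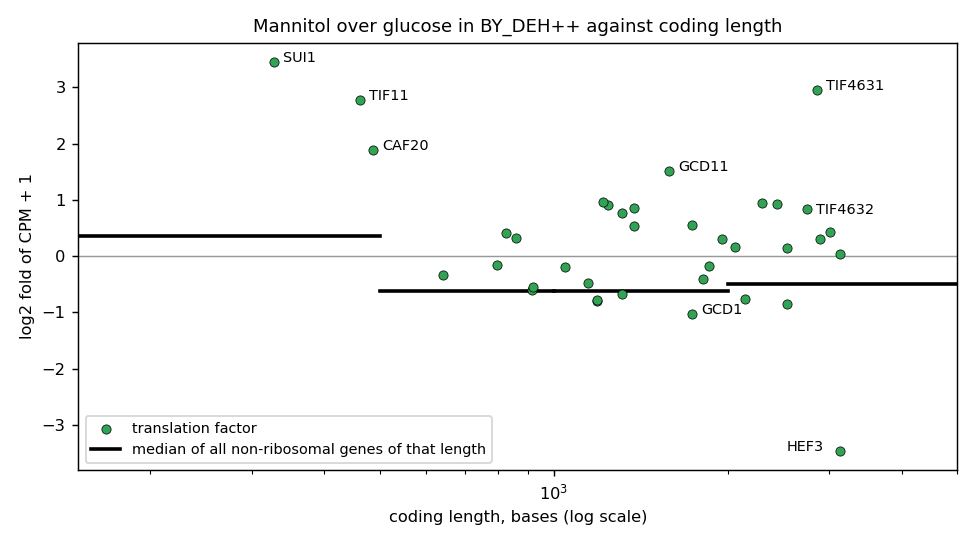
Log2 fold of mannitol over glucose in BY_DEH++ (y axis, own start windows) of the 37 genes against coding length in bases (x axis, log scale), with the median of all genes other than ribosomal protein genes in 4 length classes as black lines. SUI1, TIF11 and CAF20 are the 3 shortest, and GCD11 and TIF4631 are higher at greater length.

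DEH and mannitol were compared directly in BY_DEH++, with the DEH library also used against glucose. Here 4 of the 37 were higher in DEH (HEF3, SUI2, TIF2 and TIF3) and 4 lower (SUI1, TIF11, TIF4631 and TIF4632), against 20.7% and 9.07% of all genes, and with start windows DED1 made it 5 higher, against 22.5% and 9.26%. Higher calls were below the background and lower calls near it. The values side by side for the genes that differed most are 43.6 CPM in DEH and 4.01 CPM in mannitol for HEF3, 129 and 663 CPM for SUI1 and 64.6 and 241 CPM for TIF4631. With median-of-ratios scaling HEF3 alone was called higher.

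Between the strains, 7 of the 37 were called in DEH and 0 in glucose, where fewer of all genes were called in glucose as well. In DEH 4 were higher in BY_DEH++ (EFT1, TEF4, TIF3 and YEF3) and 3 lower (DBP1, HEF3 and TIF4632), against 5.22% and 8.52% of all genes; with start windows it was the same 4 and 2 lower (DBP1 and HEF3), against 6.00% and 9.87%. The share lower (3 of 37, or 2 by start window) was near or below the background. YEF3 was 2.72-fold higher (95% counting interval 2.68 to 2.75) in BY_DEH++, TEF4 2.54-fold higher (95% counting interval 2.45 to 2.63), TIF3 2.53-fold higher (95% counting interval 2.39 to 2.68) and EFT1 2.26-fold higher (95% counting interval 2.19 to 2.33). HEF3 was 7.51-fold lower (95% counting interval 6.97 to 8.09) and DBP1 2.14-fold lower (95% counting interval 1.88 to 2.42). In glucose 0 were higher and 0 lower, against 0.673% and 1.12% of all genes (0.795% and 1.36% with start windows), and the largest folds were those of TIF4632 (-0.83) and DBP1 (0.79) at their own starts. The 2 DEH cultures also differed in time, 3 days against 2, and in starting density, so strain and culture cannot be told apart there. The median of the 37 was 0.39 in DEH against -0.22 over all genes, and -0.02 in glucose against -0.05.

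Of the 37, 22 stayed below 2-fold in all 3 comparisons with glucose by start window (21 by deposited sum), where 46.8% of 5280 genes did (49.9% of 4904 by deposited sum): TEF4, EFT2, CDC33, TIF4632, TIF1, TIF2, TIF3, DED1, RPG1, PRT1, TIF34, TIF35, HCR1, FUN12, SUI2, SUI3, GCN3, GCD7, GCD2, GCD6, SUP45 and SUP35. A fold below the limit does not show that a gene stayed the same, since the groups have no replicates.

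Where a gene had 2 or more clusters of 10 CPM or more, the share of its deposited CPM in the main cluster was compared between media. Here the main cluster was the highest, over all libraries, of those deposited for the gene. The comparison could be done for 15 of the 37. A change of 20 percentage points or more between DEH and glucose was seen in 3 in BY_DEH+ (DED1, SUP45 and TIF4632, against 20.6% of all such genes) and in 3 in BY_DEH++ (DED1, NIP1 and SUI1, against 17.9%), and between mannitol and glucose in 2 (SUI1 and TIF11, against 28.9%). These shares are near or below those of all genes. SUP45 had a further cluster beginning at -988 from its coding start with 37.7 and 18.1 CPM in glucose, listed at 0 in DEH in both strains and at 3.25 CPM in mannitol. Its main cluster held 69.2% and 80.3% of its CPM in glucose, 99.5% and 99.0% in DEH and 96.7% in mannitol. The cluster at -988 was thus higher in the glucose libraries of both strains than in the other 3. It lies in no gene's start window and counts for SUP45 only as deposited. Whether its RNA reaches SUP45 was not tested. NIP1's main cluster held 58.1% of its deposited CPM in DEH in BY_DEH++ and 31.7% to 38.4% in the other 4 libraries. In NIP1, SUI1 and TIF11 the remaining clusters lay largely at the starts of neighbouring genes. In DED1 the main cluster was itself the start of HIS3, and DED1's own start was among the remaining clusters. The HIS3 start held 85.9% and 72.5% of the deposited CPM of DED1 in glucose (BY_DEH+ and BY_DEH++), and 44.7% and 44.9% in DEH.

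Other translation factors, ribosome-associated chaperones and quality control genes formed another list of 37. Of these, 36 matched a gene name in the deposited table, and all 36 passed the filter. In DEH 0 were higher and 3 lower in BY_DEH+ (all genes 10.5% and 9.97%), and 4 were higher and 1 lower in BY_DEH++ (all genes 8.69% and 10.8%). In mannitol 6 were higher and 5 lower (all genes 9.89% and 27.0%). With start windows, which measure all 37, the counts were 0 and 3 in BY_DEH+ (all genes 11.5% and 10.6%) and 5 and 1 in BY_DEH++ (9.11% and 11.9%). In mannitol they were 7 and 4 (9.85% and 29.1%). By deposited sum the medians were 0.04, 0.29 and -0.29. ANB1, the eIF5A gene used without oxygen, stood at its own start at 14.2 and 6.70 CPM in glucose and 56.7 CPM in mannitol. Its own start was at 0 in both DEH libraries, where its deposited sum was 2.8 (BY_DEH+) and 2.41 CPM (BY_DEH++). HYP2, the aerobic eIF5A gene, stood at 3430.4 and 3669 CPM in DEH, 1806 and 1873 CPM in glucose and 1539 CPM in mannitol. ANB1 was thus at its highest where HYP2 was at its lowest. STM1, a protein that clamps idle ribosomes, was at 613 and 1138 CPM in DEH, 352 and 201 CPM in glucose and 1018 CPM in mannitol. RLI1, the ABC protein that splits ribosomes after release, was at 88.1 and 92.5 CPM in DEH and 47.2 and 51.1 CPM in glucose, and at 104 CPM in mannitol. DPH1, which helps to make the diphthamide residue of eEF2, had a log2 fold of -1.93 in mannitol by the deposited sum, in which its own start held 24.4 of 82.8 CPM in mannitol; at its own start the log2 fold was -0.62, below 2-fold. EFB1 and CAM1, the alpha and the other gamma subunit of the eEF1A exchange factor, were at 773 to 1640.1 CPM and 203 to 271 CPM over the 5 libraries. GCN4, the transcription factor whose mRNA is translated when eIF2B is inhibited, stood at 2236 CPM in BY_DEH+ and 2379 CPM in BY_DEH++ in DEH, at 2115 and 1481 CPM in glucose, and at 880.0 CPM in mannitol.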

How the data were processed

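CAGE libraries of 5 groups, 1 library each, were analysed. Per the labels' protocols, RNA was taken by acid phenol-chloroform, caps were biotinylated and captured, and libraries were sequenced on a NextSeq500. Each value is a normalised signal, the CPM of a consensus start cluster in a library, with the scaling done by the authors, as the deposited file's name says. BWA, HISAT2 and the build mm9 are listed in the submitters' processing notes without a role; mm9 is a mouse build, whereas the clusters are named on yeast chromosomes as in R64, the build used here. The clustering tool and the rule that gives clusters to genes are not given in the sources used here. Because a cluster given to several genes is repeated in the table, the unit was recorded as signal where the design had assumed CPM.

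The 37 genes and all lists were chosen with earlier results of these data known. Deposited clusters were summed per gene, and, as an alternative, so were the clusters on its strand from 500 bp before to 100 bp after its coding start, each given to the nearest start. Genes with 10 CPM or more in at least 1 library were kept (4904, or 5280 with start windows), 1 CPM was added before log2, and calls were at 2-fold; an added CPM understates the fold of low genes. Reads were recovered from the step between low values (100% of low values whole within 0.15 of a read) and gave 95% exact intervals of ratios. No value below 5 to 10 reads is listed, other than 0. With cluster starts moved by 1 base, to count from 1, 65.7% of 204 clusters of 1 base began on a purine after a pyrimidine, against 7.84% without the shift. Sequences are from RefSeq R64. All 37 genes were named; of the other 2 lists, the 3 genes with the largest fold in DEH in both strains and in mannitol, plus ANB1, HYP2, EFB1, CAM1 and GCN4. Python 3.11.15, numpy 2.4.6, pandas 2.3.3 and SciPy 1.17.1 were used, and the fold and interval code was tested on simulated data. The alternatives were another pseudocount, no filter, 2 scalings, a 4-fold limit, 3 ways to give clusters to genes, a binomial test of reads and a 30-point limit for start shares, and, added after the data were seen, leaving out genes with over 10% of CPM outside their window.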

Additional observations from a re-analysis of the deposited data

Results flagged for a closer look

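For 8 of the 37 genes the DEH library lay on opposite sides of glucose in the 2 strains, with both counting intervals of the ratio clear of 1. This is 21.6% of them, where 12.9% of the 5280 genes with start windows met the same criterion, and the intervals are narrower for genes with more reads. The values are log2 folds from own start windows, and each rests on 1 library a group, so the difference between the strains was not tested. HEF3 stood at 2.79 in BY_DEH+ and -0.30 in BY_DEH++, and DBP1 at 1.14 and -0.72, both higher in BY_DEH+. The other 6 were higher in BY_DEH++: YEF3 at -0.25 in BY_DEH+ and 1.02 in BY_DEH++, TEF4 at -0.46 and 0.68, TIF1 at -0.96 and 0.06, TIF3 at -0.24 and 0.51, TIF2 at -0.24 and 0.26, and FUN12 at -0.11 and 0.39. All 8 kept opposite signs with median-of-ratios scaling and without ribosomal protein genes, with the smallest value FUN12 in BY_DEH+, at -0.03 without ribosomal protein genes. The cultures differed in time, 3 days in BY_DEH+ and 2 in BY_DEH++, which cannot be told apart from the strain.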

How the results depend on the processing

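No paired analysis was possible because each group is 1 library. Of 126 counts recomputed under alternatives, 94 stayed within 1.5 times the count first given. These include the counts without a filter, which could not differ because all 37 genes pass it. The binomial test of reads was applied on top of the 2-fold limit, so it could only remove calls, and it removed none. A 4-fold limit left 1 gene higher and 0 lower for DEH over glucose in BY_DEH+, 0 higher in BY_DEH++, 3 higher and 1 lower in mannitol, 1 higher and 1 lower for DEH over mannitol, and 0 higher and 1 lower between the strains in DEH. A pseudocount of 10 CPM left 1 higher in BY_DEH+ in DEH, 1 lower in mannitol and 1 lower between the strains in DEH. With median-of-ratios scaling 11 were higher and 1 was lower in mannitol, with 1 higher for DEH over mannitol and 1 lower between the strains in DEH, and scaling without ribosomal protein genes gave 5 higher in BY_DEH+ in DEH, 11 higher and 1 lower in mannitol, and 1 higher for DEH over mannitol. Clusters given to 1 gene alone, which leave 31 of the 37, gave 3 higher in mannitol, 2 lower for DEH over mannitol and 1 lower between the strains in glucose. Start windows gave 1 lower in BY_DEH+ in DEH. The highest cluster alone gave 1 lower in BY_DEH++ in DEH, which is DED1, whose highest cluster is the start of HIS3. Without genes that have over 10% of CPM outside their window, 24 remain, with 1 lower in BY_DEH+ in DEH, 2 higher in mannitol and 0 lower for DEH over mannitol. Changed start shares came to 0 in BY_DEH++ in DEH and 1 in mannitol at 30 points, and to 0 and 0 with clusters of 1 gene alone. Median log2 folds turned sign: between the strains in glucose, from -0.02, to 0.040 without those genes, 0.021 with start windows, 0.010 with clusters of 1 gene, 0.011 with the highest cluster and 0.014 with median-of-ratios scaling, and with that scaling to -0.083 from 0.01 for DEH over glucose in BY_DEH+ and to -0.014 from 0.32 for DEH over mannitol. Except where stated, the cause of a change was not tested. Depth limits TIF4632, HEF3 and other genes at low CPM most.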

Other observations

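The cytosolic aminoacyl-tRNA synthetases charge tRNAs for the elongation factors described above. With ARC1, which is not itself such an enzyme, they formed a list of 22 genes. Of these, 19 matched a gene name in the deposited table, and all 19 passed the filter. By deposited sum, in DEH 0 were higher and 2 lower in BY_DEH+ (all genes 10.5% and 9.97%) and 0 were called in BY_DEH++ (all genes 8.69% and 10.8%), and in mannitol 1 was higher and 0 lower (all genes 9.89% and 27.0%). With start windows, which measure all 22, the counts were the same in BY_DEH+ (all genes 11.5% and 10.6%) and in mannitol (9.85% and 29.1%). In BY_DEH++ in DEH 2 were higher, FRS1 (log2 fold 1.12) and MES1 (1.10), against 9.11% of all genes. By deposited sum the median log2 fold was -0.44 in BY_DEH+, 0.28 in BY_DEH++ and 0.23 in mannitol. Levels below are from own start windows. ILS1, the isoleucine enzyme, stood at 119 CPM and 227 CPM in DEH and at 286 and 415 CPM in glucose, below glucose in both strains. TYS1, the tyrosine enzyme, was at 160.3 and 267 CPM in DEH, 288 and 335 CPM in glucose and 171 CPM in mannitol. MES1, the methionine enzyme, was above glucose in DEH, at 249 and 377 CPM against 194 and 176 CPM. SES1, the serine enzyme, was the gene called higher in mannitol, at 411 CPM against 169 CPM in glucose, and FRS2, a subunit of the phenylalanine enzyme, was at 17.3 and 28.1 CPM there. Between the strains in DEH, all 19 had a log2 fold above 0 in BY_DEH++ over BY_DEH+ (median 0.73), where 34.8% of all 4904 genes had, and 1 of them was past 2-fold, against 5.22%. With start windows it was 22 of 22, against 35.7% of 5280 genes, with 2 past 2-fold.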
